A study of Mus musculus with 11 samples.

Results

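The Sox and T-box genes encode 2 families of DNA-binding transcription factors, and their transcripts were followed through every cell population measured in mesenchyme of the mouse small intestine. Members were all gene symbols made of Sox or Tbx and a number, whatever their level, with thromboxane genes and antisense names left out. The bulk count table listed 32 such genes among 24969 names, 19 of them Sox and 13 T-box genes. The same 32 were present among 27999 features of the sorted single-cell matrix and among 31053 features of each whole-mesenchyme matrix. Among the 4 populations sorted for bulk sequencing, Sox4, Sox6, Sox12, Tbx2 and Tbx4 were called above each of the others in telocytes. The same held for Sox9 in PDGFRAlo stroma, Sox17 in blood endothelium and Tbx1 in lymphatic endothelium. Sox6, Tbx4, Sox17 and Tbx1 kept this place under every alternative run for it, and Sox4, Sox12, Tbx2 and Sox9 did not. Levels of Sox11 and Sox13 were also highest in telocytes, without a call against PDGFRAlo cells.

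Sox proteins bind a short AT-rich element in the minor groove through a high-mobility-group (HMG) box and bend the DNA, and they usually act beside partner factors at enhancers. T-box proteins bind through a larger T domain, named after Brachyury, and act as activators or repressors according to the member. Both families are known for setting lineage in development: SoxF genes in blood and lymphatic vessels, SoxE genes in neural crest and cartilage, SoxD genes as partners of SoxE factors, the Tbx2 subfamily in lung, limb and heart mesenchyme, Tbx1 in the pharynx and in lymphatic growth, and Tbx21 (T-bet) in type 1 lymphocytes.

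Bulk RNA sequencing covered 4 sorted populations with 2 libraries each, and droplet single-cell sequencing covered 1 library of sorted reporter cells and 2 of whole mesenchyme. Telocytes were the GFP-high cells, and PDGFRAlo stromal cells the GFP-low cells, of the PDGFRA-H2BEGFP reporter mouse, in which the Pdgfra locus drives a nuclear green fluorescent protein, so that both gates carry the same knock-in. Blood endothelium was sorted as CD31+LYVE1- cells and lymphatic endothelium as CD31+LYVE1+ cells of C57BL/6 mice without the reporter. The sorted single-cell library mixed GFP-low and GFP-high cells, and the labels repeat its description for the whole-mesenchyme libraries. All material was entire small intestine, stripped of muscle and epithelium, with no treatment named. The labels give no age, sex or number of pooled mice. They do not name separate animals for the replicates, so each p-value reflects variation among these libraries only, and that variation may be technical.

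Bulk libraries held from 8549348 to 55382442 counts. Summed markers of telocytes, fibroblasts, blood endothelium and lymphatic endothelium were each highest in the matching population, but markers of other types were present too. Summed CPM (counts per 1e6, with library totals scaled by TMM) of 6 blood endothelial markers reached 24518 and 16809 in blood endothelium, 2350 and 861 in PDGFRAlo replicates 1 and 2, and 59.1 and 39.5 in telocytes. The lymphatic marker Ccl21a had no count in any library. The largest sums of another type were those of 6 plasma cell markers, at 170180 and 65507 in lymphatic endothelium replicates 1 and 2, against 4755 and 4751 in blood endothelium, 1853 and 1973 in PDGFRAlo cells and 347 and 298 in telocytes. In lymphatic endothelium they exceeded the lymphatic markers themselves, at 3958 and 7557, and all 6 were called lower in blood than in lymphatic endothelium. Their part in the CPM of the lymphatic libraries, and in each difference between the endothelial populations, was not tested. Macrophage markers summed to 6825 and 8928 in lymphatic endothelium. The median absolute log2 difference between replicates over the tested members was 0.0923 in telocytes and 0.797 in PDGFRAlo cells.

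The 250 bases before annotated start sites were searched on both strands for ACAAT, the core of Sox sites, and separately for GTGTGA, the core of T-box sites. RefSeq windows on GRCm38.p6 were available for 22 of the 32 members, 30 windows in all. ACAAT was found in 9 of the 30 windows (30.0%), which belong to 6 members, where 27.7% of 32851 windows of that length hold it. GTGTGA was found in 1 window, of Sox6 (3.33% of the 30), where 12.3% hold it. Windows of Sox6 and Tbx4 are shown because these were the members with the widest telocyte difference. Sox6 has 6 windows, and the 2 shown each hold a match. Of the other 4, those of start sites 1 and 2 held 3 and 2 matches to ACAAT and those of start sites 5 and 6 held none of either motif. Capitals mark the motifs, read on either strand. Both Sox6 windows shown and the Tbx4 window precede inner start sites and lie within the span of their genes.
Sox6 start site 3: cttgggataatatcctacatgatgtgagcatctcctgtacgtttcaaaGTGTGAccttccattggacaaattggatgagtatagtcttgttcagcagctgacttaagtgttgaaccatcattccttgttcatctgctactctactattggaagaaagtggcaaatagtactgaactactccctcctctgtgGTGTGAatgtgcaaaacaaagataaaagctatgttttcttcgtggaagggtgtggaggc
Sox6 start site 4: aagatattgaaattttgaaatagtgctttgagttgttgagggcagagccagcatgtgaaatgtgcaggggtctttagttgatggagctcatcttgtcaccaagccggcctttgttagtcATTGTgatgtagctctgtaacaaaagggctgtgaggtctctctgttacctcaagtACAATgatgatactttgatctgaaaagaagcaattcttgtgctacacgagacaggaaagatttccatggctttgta
Tbx4: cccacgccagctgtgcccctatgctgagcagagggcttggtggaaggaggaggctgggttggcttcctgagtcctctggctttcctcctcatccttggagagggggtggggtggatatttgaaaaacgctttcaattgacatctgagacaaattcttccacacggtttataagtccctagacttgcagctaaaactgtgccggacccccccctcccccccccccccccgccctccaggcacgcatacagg
The Sox6 windows are chr7:115846141-115846390 and chr7:115995087-115995336 on the minus strand, and the Tbx4 window is chr11:85896515-85896764 on the plus strand. The window of Sox6 start site 3 held 2 matches to GTGTGA, 1 of them in the longer form GGTGTGA that 3.33% of all windows hold, and no ACAAT. The window of start site 4 held 2 matches to ACAAT. The Tbx4 window held no match to either.

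Of the 32 members, 18 passed the filter on low counts in bulk, and the same 18 reached a mean of 1 CPM in at least 1 population. Between telocytes and PDGFRAlo cells, 11 of the 18 were called, 5 higher and 6 lower in telocytes (edgeR quasi-likelihood test, Benjamini-Hochberg adjusted p under 0.05), where 14.9% of all 14893 genes tested were called (2.77% higher, 12.1% lower). A member that passed the filter through 1 population had to differ there, so these shares describe the 18 and are no evidence about the families. The members' median log2 fold was -0.46, against -0.03 over all genes. Leaving out 1 of the 4 compared libraries left between 4 and 7 calls: 5 without telocyte replicate 1, 4 without telocyte replicate 2, 6 without PDGFRAlo replicate 1 and 7 without PDGFRAlo replicate 2.

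Between blood and lymphatic endothelium, 7 of the 18 were called, 6 higher in blood endothelium and Tbx1 lower, where 23.0% of all genes were called (14.7% higher, 8.32% lower). The members' median log2 fold was 2.24, against 0.12 over all genes. Between the PDGFRA populations and endothelium, 13 were called, 10 higher and 3 lower in the PDGFRA populations, where 60.5% of all genes were called (28.8% higher, 31.7% lower), so the share of members called is near that of all genes. In that last comparison strain, reporter and gate cannot be told apart. The same holds for every pair of a PDGFRA and an endothelial population, including the pairs used by the rule that follows. Members called against each of the other 3 populations with a log2 fold above 1 numbered 8, where 14.5% of all genes met this rule: Sox4, Sox6, Sox12, Tbx2 and Tbx4 in telocytes (2.12% of all genes), Sox9 in PDGFRAlo cells (2.72%), Sox17 in blood endothelium (6.08%) and Tbx1 in lymphatic endothelium (3.61%). The 8 became 5 without telocyte replicate 1, 4 without telocyte replicate 2 and 5 without PDGFRAlo replicate 2. Sox6, Tbx4, Sox17 and Tbx1 met the rule under every alternative run for it, and Sox4, Sox12, Tbx2 and Sox9 did not. In bulk, fewer cells of a type and less RNA per cell cannot be told apart.

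**Figure D1:**
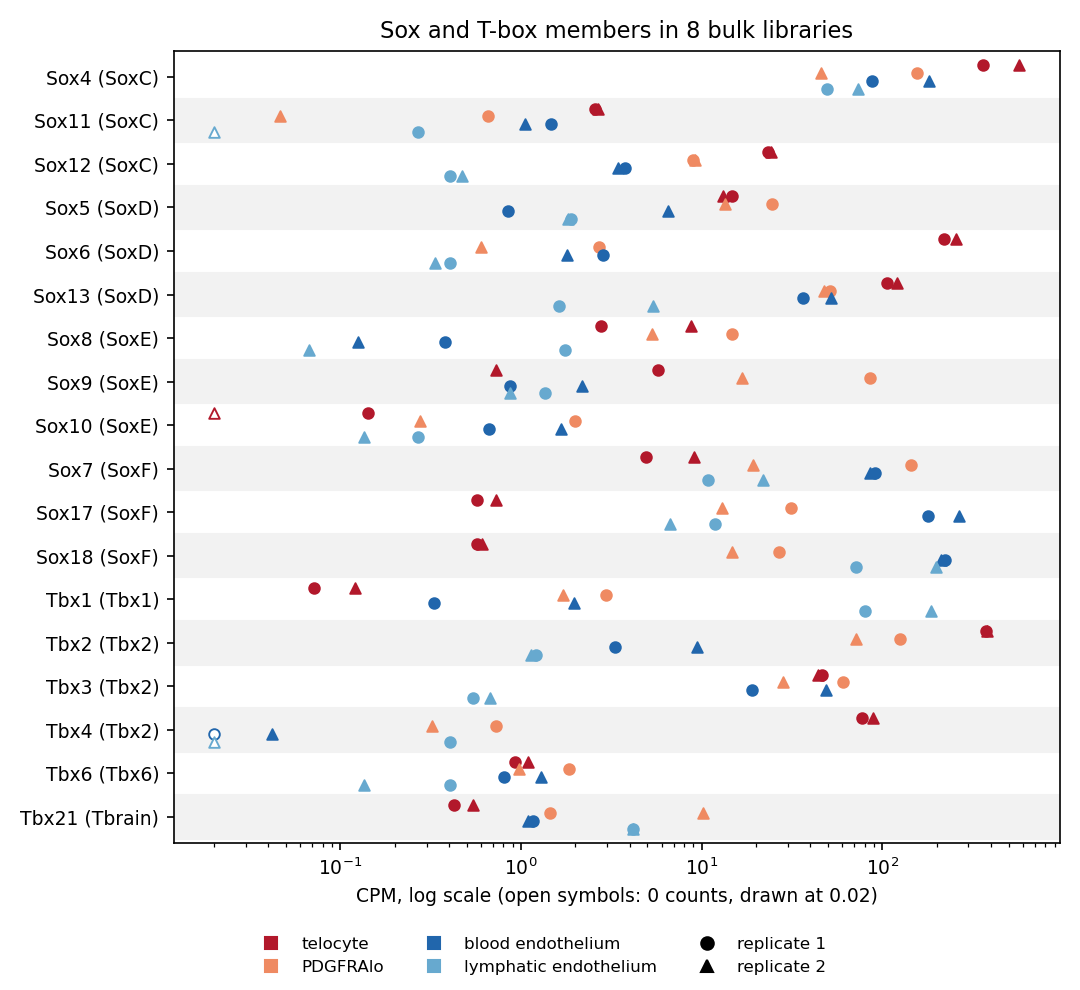
CPM on a log scale for the 18 members tested, with 1 point for each of 8 bulk libraries (colour, population; circle, replicate 1; triangle, replicate 2; open symbols, no count, drawn at 0.02). Telocyte points lie right of all others for Sox6, Tbx4, Tbx2, Sox12, Sox4, Sox13 and Sox11, while the PDGFRAlo replicates lie far apart for Sox7, Sox9 and Tbx21.

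In the whole-mesenchyme libraries, cells were assigned to types by marker genes that include no member, and UMI counts (unique molecular identifiers) were summed per class and library. Of 6886 and 6676 barcodes, 6226 and 6040 passed the cell filters, with median depths of 5280 and 5273 UMIs before predicted doublets were removed. Of the cells kept after that step, 4178 and 4078 were gated. The libraries shared 9 barcodes with each other and at most 1 with the sorted library. Over 14 classes with at least 20 cells in both libraries, 16 members passed the filter, and 51 of 224 member and class pairs (22.8%) were called higher than the mean of the other classes, where 26.1% of all gene and class pairs were, so the members' share is near that of all genes. Of the 16, 9 were called in telocytes, where 29.2% of all genes were, and 8 in fibroblasts (43.9%). The count was also 8 in smooth muscle (36.5%), glia (15.97%) and blood endothelium (25.5%), and it was 5 in lymphatic endothelium (24.1%). Plasma cells, T cells, NK or group 1 innate lymphoid cells and innate lymphoid groups 2 and 3 had 1 each, and B cells, macrophages and dendritic cells had none, where between 10.2% and 41.0% of all genes were called. Gated telocytes were 83 and 90 cells, and 55.4% and 51.1% of them carried 3 or more pericyte markers. Gates rest on markers, and cells just past the limit are included.

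**Figure D2:**
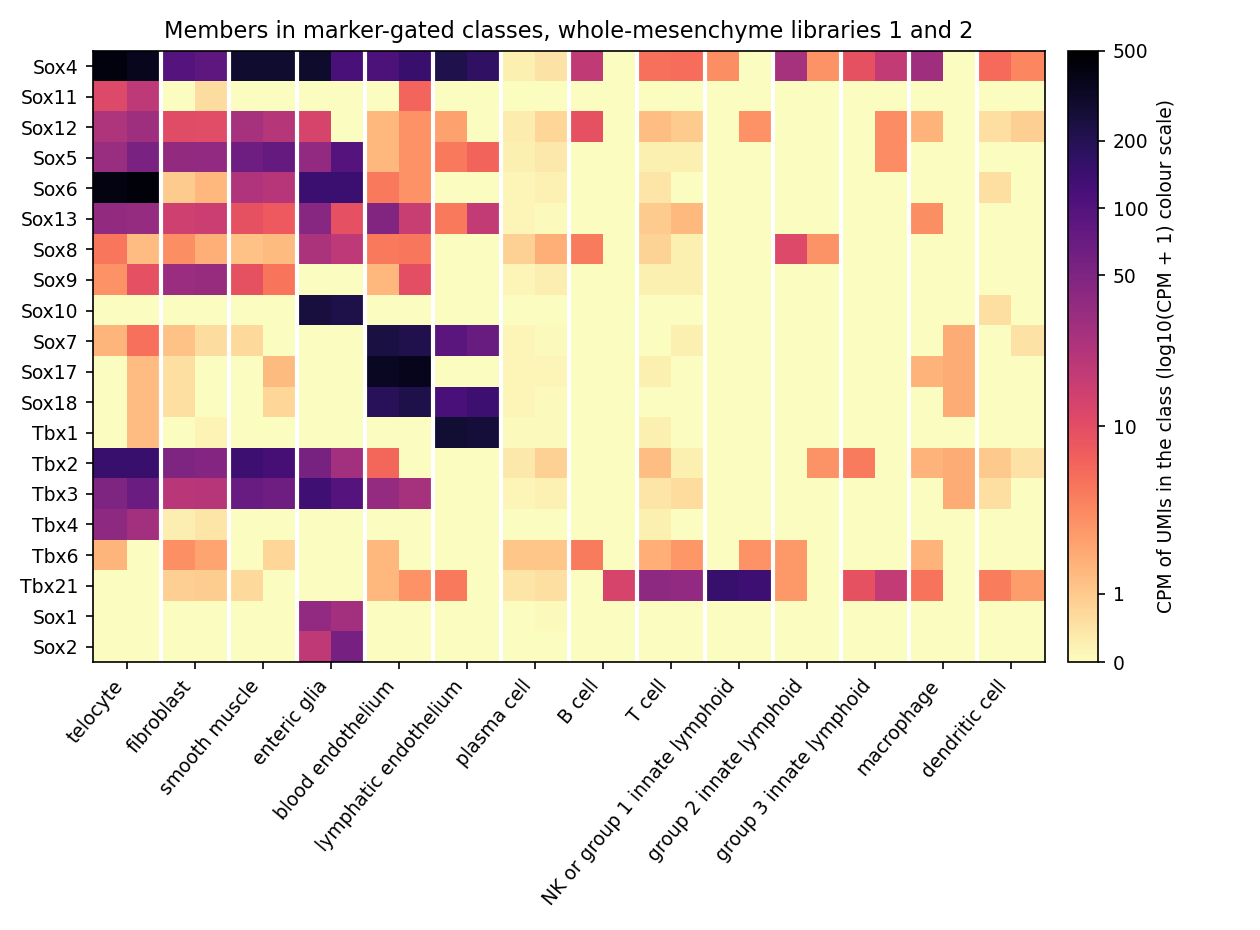
CPM of UMIs (log10(CPM + 1) colour scale) of 20 members in 14 marker-gated classes, with libraries 1 and 2 of whole mesenchyme side by side in each column. Sox6 and Tbx4 are darkest in telocytes, Sox17 in blood endothelium, Tbx1 in lymphatic endothelium, Sox10 in enteric glia and Tbx21 in NK or group 1 innate lymphoid cells.

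Among the SoxF genes, Sox17 (chr1:4490931-4497354, minus strand), which acts in arterial and endodermal development, measured 179 and 266 CPM in blood endothelium, 11.9 and 6.72 in lymphatic endothelium, 31.4 and 12.9 in PDGFRAlo cells and 0.57 and 0.727 in telocytes. The blood endothelial libraries lay above all others and the telocyte libraries below all others. Sox17 was higher in blood than in lymphatic endothelium by 4.60 on the log2 scale (SE 0.53, adjusted p = 0.00143), and telocytes fell short of PDGFRAlo cells (-5.07, SE 0.59, adjusted p = 0.000715, and -4.27 without PDGFRAlo replicate 1). In single cells the split was sharper: 335 and 360 CPM from 440 UMIs in gated blood endothelium and no UMI in gated lymphatic endothelium, which makes Sox17 at least 103-fold higher when 3 counts are put in the empty class (adjusted p = 9.1e-17, and 0.0574 in DESeq2). A Sox17 UMI was seen in 66.1% and 62.8% of blood endothelial cells, and in 49.5% and 43.0% after each cell was thinned to 2000 UMIs. Sox17 shares 16.9% of its exon bases with an opposite-strand transcript, and the sources used here do not give the strand setting of the counting.

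Sox18 (chr2:181669836-181671640, minus strand), which switches on lymphatic fate in embryonic veins, was high in both vascular beds. It measured 222 and 211 CPM in blood endothelium and 71.8 and 199 in lymphatic endothelium, against 26.8 and 14.6 in PDGFRAlo cells and 0.57 and 0.605 in telocytes. The endothelial groups did not overlap, yet the bulk difference was not called (0.67, SE 0.48, adjusted p = 0.333). In gated cells Sox18 measured 185 and 220 CPM in blood and 116 and 139 CPM in lymphatic endothelium, and the difference of 0.88 was called (adjusted p = 0.00124, but 0.984 in DESeq2). Between telocytes and PDGFRAlo cells the fold was -5.12 (SE 0.62, adjusted p = 0.000867).

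Sox7 (chr14:63943673-63950732, plus strand), the third vascular SoxF gene, measured 91.1 and 85.0 CPM in blood endothelium and 10.8 and 21.9 in lymphatic endothelium. In PDGFRAlo cells it measured 143.8 and 19.2 CPM, and in telocytes 4.92 and 9.08. PDGFRAlo replicate 1 thus exceeded both blood endothelial libraries, while replicate 2 lay below them. Sox7 was lower in telocytes than in PDGFRAlo cells (-3.54, SE 0.83, adjusted p = 0.0192), but without PDGFRAlo replicate 1 the fold was -1.43 (adjusted p = 0.131), and without PDGFRAlo replicate 2 it was -4.35 (0.00109). Without telocyte replicate 1 or 2 the adjusted p of Sox7 was 0.112 and 0.0653, and in the fit of the compared libraries alone it was 0.0745. Its excess in blood over lymphatic endothelium, 2.42 (SE 0.79), missed the threshold (adjusted p = 0.0543) and passed without PDGFRAlo replicate 1 (0.00877) or 2 (0.0071), in DESeq2 (0.00739), with no filter on low counts (0.000146) and in the fit of the endothelial libraries alone (0.0108). In gated cells Sox7 measured 236 and 209 CPM in blood and 88.2 and 69.6 CPM in lymphatic endothelium, a called difference of 1.71 (adjusted p = 5.8e-08).

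Sox7, Sox17, Sox18 and the summed endothelial markers were each higher in PDGFRAlo replicate 1 than in replicate 2. As a percentage of the blood endothelial mean, the marker sum in PDGFRAlo replicates 1 and 2 was 11.4 and 4.17, Sox17 was 14.1 and 5.78, and Sox18 was 12.4 and 6.77. Sox7 was at 163 and 21.8, above the marker share in both replicates. As a percentage of the lymphatic mean, Sox18 was 19.7 and 10.8, above the lymphatic marker sum at 6.38 and 1.78. The part of endothelial RNA in these SoxF differences was not tested in bulk. In gated fibroblasts of whole mesenchyme Sox17 and Sox18 measured at most 0.48 CPM and Sox7 at most 1.20 CPM. In the sorted library neither Sox17 nor Sox18 had a UMI in any of 577 gated telocytes or 2621 gated fibroblasts. There 3 UMIs would be 1.02 and 0.238 CPM. Sox7 had 10 UMIs over these gated cells.

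The SoxC genes encode activators of progenitor and mesenchymal programmes. Sox4 (chr13:28948919-28953713, minus strand) had the highest level per kilobase of exon of the 3 in telocytes, 97.6 CPM per kb. It measured 361 and 575 CPM in telocytes, 156 and 45.6 in PDGFRAlo cells, 87.3 and 181 in blood endothelium and 49.4 and 72.9 in lymphatic endothelium. The telocyte libraries lay above every other library, and the fold over PDGFRAlo cells was 2.22 (SE 0.61, adjusted p = 0.0397). Sox4 shares 54.6% of its exon bases with the opposite-strand transcript Gm26735. Gated telocytes measured 413 and 349 CPM and gated fibroblasts 96.8 and 84.8 CPM, a difference of 1.75 (SE 0.13, adjusted p = 1.29e-14). Sox4 was also high in other classes: smooth muscle held 291 and 288 CPM, glia 300.0 and 114 CPM and lymphatic endothelium 216 and 167 CPM. Droplets with under 50 UMIs held 31.1 and 31.2 CPM of Sox4, which is above its level in T cells (5.44 and 5.50 CPM).

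Sox12 (chr2:152393611-152398063, minus strand) was also highest in telocytes, at lower levels than Sox4. It measured 23.4 and 24.3 CPM in telocytes, 8.92 and 9.15 in PDGFRAlo cells, 3.76 and 3.44 in blood endothelium and 0.405 and 0.471 in lymphatic endothelium. No neighbouring groups overlapped, and every neighbouring step was called: 1.40 (SE 0.38, adjusted p = 0.0354), 1.33 (adjusted p = 0.0205) and 3.0 (SE 0.47, adjusted p = 0.00338). In gated cells Sox12 was higher in telocytes (23.8 and 31.0 CPM) than in fibroblasts (10.6 and 10.1 CPM), by 1.10 (SE 0.33, adjusted p = 0.0103). Sox11, the third SoxC gene, stayed near 1 CPM: 2.57 and 2.66 in telocytes, 0.661 and 0.0462 in PDGFRAlo cells, 1.47 and 1.05 in blood endothelium and 0.27 and 0 in lymphatic endothelium. Its telocyte difference of 2.93 was not called (SE 1.24, adjusted p = 0.173).

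The bulk calls of Sox4 and Sox12 between telocytes and PDGFRAlo cells depended on single libraries. Sox12 lost its call without any 1 of the 4 compared libraries (adjusted p from 0.131 to 0.247, fold from 1.37 to 1.42) and with no filter on low counts (0.0559). Sox4 lost it without telocyte replicate 1 (0.0599) or 2 (0.192), PDGFRAlo replicate 2 (0.177), or lymphatic replicate 1 (0.0641) or 2 (0.0655), and in the fit of the compared libraries alone (0.079). The Sox4 fold was 1.59 without PDGFRAlo replicate 2 and 3.38, still called (0.0148), without PDGFRAlo replicate 1.

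The SoxD genes encode factors without an activation domain of their own that work as dimers beside other Sox proteins. Sox6 (chr7:115470872-116038796, minus strand) measured 220 and 254 CPM in telocytes, 2.71 and 0.601 in PDGFRAlo cells, 2.84 and 1.80 in blood endothelium and 0.405 and 0.336 in lymphatic endothelium. Telocytes stood apart from every other library, at 16 CPM per kb. The fold of 7.21 over PDGFRAlo cells (SE 0.68, adjusted p = 0.000337) was called under all 13 alternatives tried, as were those of Tbx4, Sox17 and Sox18, and it was 8.64 and 6.46 without PDGFRAlo replicates 1 and 2. In gated cells Sox6 measured 405 and 449 CPM in telocytes and 0.96 and 1.57 CPM in fibroblasts, a difference of 8.02 (SE 0.21, adjusted p = 2.07e-27). It was seen in 85.5% and 85.6% of telocytes (50.6% and 53.3% after thinning to 2000 UMIs) and in 0.463% and 0.60% of fibroblasts, at similar median depths of 7572 and 8220 against 7644 and 7562 UMIs.

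Sox6 was present outside telocytes too. Enteric glia, which no bulk gate collected, held 144 and 143 CPM from 38 UMIs, and smooth muscle held 23.2 and 21.0 CPM. Both classes were called above the mean of the other classes. Within smooth muscle, 30.1% and 25.6% of cells carried 3 or more telocyte markers, and the part of telocyte RNA in that level was not tested. Sox6 was also higher in blood than in lymphatic endothelium in bulk (2.67, SE 0.74, adjusted p = 0.0305), a call lost without blood replicate 1 (0.101), lymphatic replicate 1 (0.108) or lymphatic replicate 2 (0.197) and in the fit of the endothelial libraries alone (0.0683).

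Sox13 and Sox5 had other patterns than Sox6. Sox13 (chr1:133382303-133424377, minus strand) measured 106 and 120.3 CPM in telocytes, 51.5 and 47.3 in PDGFRAlo cells, 36.4 and 51.7 in blood endothelium and 1.62 and 5.38 in lymphatic endothelium. Telocytes were highest, PDGFRAlo and blood endothelium overlapped, and lymphatic endothelium lay far below. The step from blood to lymphatic endothelium was called (3.59, SE 0.50, adjusted p = 0.00239, and 4.77 without lymphatic replicate 2), while the telocyte step was not (1.20, SE 0.45, adjusted p = 0.119). The telocyte step of Sox13 was called in 5 of the 13 alternatives: in DESeq2 (0.0495), with no filter on low counts (0.0373), in the fit of the compared libraries alone (0.0158), and without lymphatic replicate 1 (0.036) or 2 (0.0362). In gated cells Sox13 was higher in telocytes than in fibroblasts by 0.95 (SE 0.32, adjusted p = 0.0241, and 0.362 in DESeq2) and higher in blood than in lymphatic endothelium by 1.73 (adjusted p = 0.0223, and 0.16 in DESeq2).

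Sox5 measured 14.8 and 13.1 CPM in telocytes, 24.4 and 13.4 in PDGFRAlo cells, 0.851 and 6.54 in blood endothelium and 1.89 and 1.82 in lymphatic endothelium. The PDGFRA groups overlapped each other and lay above endothelium, a difference of 2.64 (adjusted p = 0.00351, and 3.69 without blood replicate 2). In gated cells Sox5 was spread over smooth muscle (64.2 and 75.5 CPM), glia (37.5 and 95.3 CPM), telocytes (33.3 and 54.0 CPM) and fibroblasts (37.0 and 37.9 CPM). The 8 and 19 gated pericytes, too few for the test, held 192 and 135.5 CPM of Sox5 from 6 and 10 UMIs. The telocyte and fibroblast classes differed by -0.08 (SE 0.22, adjusted p = 0.841), which was not called.

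Among the SoxE genes, Sox9 (chr11:112782224-112787760, plus strand), the regulator of cartilage fate, went the opposite way to Sox6. It measured 85.3 and 16.8 CPM in PDGFRAlo cells, 5.70 and 0.727 in telocytes, 0.875 and 2.18 in blood endothelium and 1.35 and 0.874 in lymphatic endothelium. PDGFRAlo cells lay above all other libraries, and Sox9 was lower in telocytes with a log2 fold of -4.0 (SE 1.03, adjusted p = 0.0284). Leaving out PDGFRAlo replicate 1 brought this to -2.37 (adjusted p = 0.223) and leaving out telocyte replicate 2 to -3.16 (0.111). Without lymphatic replicate 1 (0.0565) or 2 (0.0583), and in the fit of the compared libraries alone (0.0828), the call of Sox9 was also lost. The fold was -6.14 without telocyte replicate 1 and -4.73 without PDGFRAlo replicate 2, both called. In gated cells fibroblasts held 32.4 and 33.7 CPM and telocytes 3.17 and 9.44 CPM (-2.64, SE 0.41, adjusted p = 3.93e-06, and 0.45 in DESeq2). The sorted library showed 37.3 CPM in fibroblasts and 0.34 CPM, from 1 UMI, in telocytes, a ratio of 109.7 with a 95% counting interval from 19.6 to 4341.

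Sox10 (chr15:79154908-79165240, minus strand), which maintains glia, was near the floor in bulk: 0.143 and 0 CPM in telocytes, 1.98 and 0.277 in PDGFRAlo cells, 0.662 and 1.68 in blood endothelium and 0.27 and 0.134 in lymphatic endothelium. The 36 counts of PDGFRAlo cells against 2 of telocytes make a ratio of 14.9 (95% counting interval 3.83 to 127), and the difference was not called (adjusted p = 0.132). In single cells Sox10 was concentrated in gated glia at 243 and 219 CPM, with 62 of its 63 gated whole-mesenchyme UMIs there. Summed enteric glia markers in bulk were 25.7 and 9.80 CPM in PDGFRAlo cells and 1.92 and 1.09 in telocytes, so they moved with Sox10, and their part in it was not tested. Sox8 measured 14.7 and 5.31 CPM in PDGFRAlo cells, 2.78 and 8.78 in telocytes, 0.378 and 0.126 in blood endothelium and 1.76 and 0.0672 in lymphatic endothelium. The PDGFRA groups overlapped (-0.78, adjusted p = 0.737) and together exceeded endothelium (4.01, adjusted p = 0.00317, and 5.76 without lymphatic replicate 1). Gated telocytes and fibroblasts of whole mesenchyme were not called apart in Sox8 (-0.14, SE 0.93, adjusted p = 0.942). It was called above the mean of the other classes in glia (4.79, adjusted p = 0.00209) and plasma cells (2.65, 0.000597). Such calls in fibroblasts, blood endothelium and group 2 innate lymphoid cells were each lost in an alternative.

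In the Tbx2 subfamily, Tbx2 (chr11:85832551-85841948, plus strand), a repressor that keeps mesenchyme proliferating, measured 376 and 378 CPM in telocytes, 125 and 71.9 in PDGFRAlo cells, 3.33 and 9.38 in blood endothelium and 1.22 and 1.14 in lymphatic endothelium. The 4 groups did not overlap and formed a descending order, with steps of 1.94 (SE 0.49, adjusted p = 0.0267), 3.96 (adjusted p = 0.000654) and 2.42 (SE 0.57, adjusted p = 0.016). The telocyte step was lost without telocyte replicate 1 (0.087) or 2 (0.0972), PDGFRAlo replicate 1 (0.0505) or 2 (0.176), or lymphatic replicate 2 (0.0504). The endothelial step was lost without blood replicate 2 (a fold of 1.51, adjusted p = 0.0612) or lymphatic replicate 1 (0.0747) or 2 (0.116), and in the fit of the endothelial libraries alone (0.062). Per kilobase, Tbx2 was the highest member in telocytes at 104 CPM per kb, next to Sox4. In gated cells Tbx2 was higher in telocytes (147 and 144 CPM) than in fibroblasts (50.1 and 45.5 CPM) by 1.30 (SE 0.15, adjusted p = 6.46e-09), and smooth muscle measured 138 and 124 CPM, below telocytes by less than the step to fibroblasts. Gated pericytes, 8 and 19 cells and so too few for the test, held 256 and 163 CPM of Tbx2 from 8 and 12 UMIs. These values lay above the telocyte level, but on too few UMIs to rank the classes.

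Tbx4 (chr11:85886422-85916097, plus strand), known for hindlimb and lung mesenchyme and the neighbour of Tbx2 on chromosome 11, was far more restricted. It measured 76.9 and 89.0 CPM in telocytes, 0.727 and 0.323 in PDGFRAlo cells, 0 and 0.0419 in blood endothelium and 0.405 and 0 in lymphatic endothelium. Telocytes lay above every other library by a wide margin, with a fold of 7.34 over PDGFRAlo cells (SE 0.77, adjusted p = 0.000478, and 8.0 without PDGFRAlo replicate 1) and a level of 24.4 CPM per kb. In gated cells it measured 39.6 and 28.3 CPM in telocytes from 46 UMIs, and 0.24 and 0.393 CPM in fibroblasts (6.16, SE 0.63, adjusted p = 1.45e-09, and 0.701 in DESeq2). Across the other 12 classes a lone UMI was found, in T cells, so gated smooth muscle and glia, which held Sox6, held none of Tbx4. For glia this rests on 32 and 23 cells with 160192 and 104919 UMIs, too few to show absence. The 1950 and 1849 kept cells that met no gate held 15 and 15 Tbx4 UMIs (1.17 and 1.17 CPM), and their type was not assigned. Tbx5, the paired relative of Tbx4 in the forelimb and heart, had no count in any bulk library.

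Tbx3 (chr5:119670669-119684724, plus strand), the close relative of Tbx2, did not separate the PDGFRA gates in bulk. It measured 46.3 and 44.0 CPM in telocytes, 60.8 and 28.3 in PDGFRAlo cells, 19.0 and 48.6 in blood endothelium and 0.54 and 0.672 in lymphatic endothelium. The first 3 groups overlapped (telocyte fold 0.02, SE 0.49, adjusted p = 0.991), and blood endothelium exceeded lymphatic endothelium by 5.75 (SE 0.66, adjusted p = 0.00139, and 4.93 without blood replicate 2). Gated blood endothelium held 36.0 and 27.1 CPM from 40 UMIs and gated lymphatic endothelium none, at least 9.37-fold (adjusted p = 2.13e-06). Gated telocytes (50.7 and 67.4 CPM) exceeded gated fibroblasts (20.3 and 21.0 CPM) by 1.22 (SE 0.22, adjusted p = 3.68e-05), while glia held the most, 131 and 95.3 CPM.

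**Figure D3:**
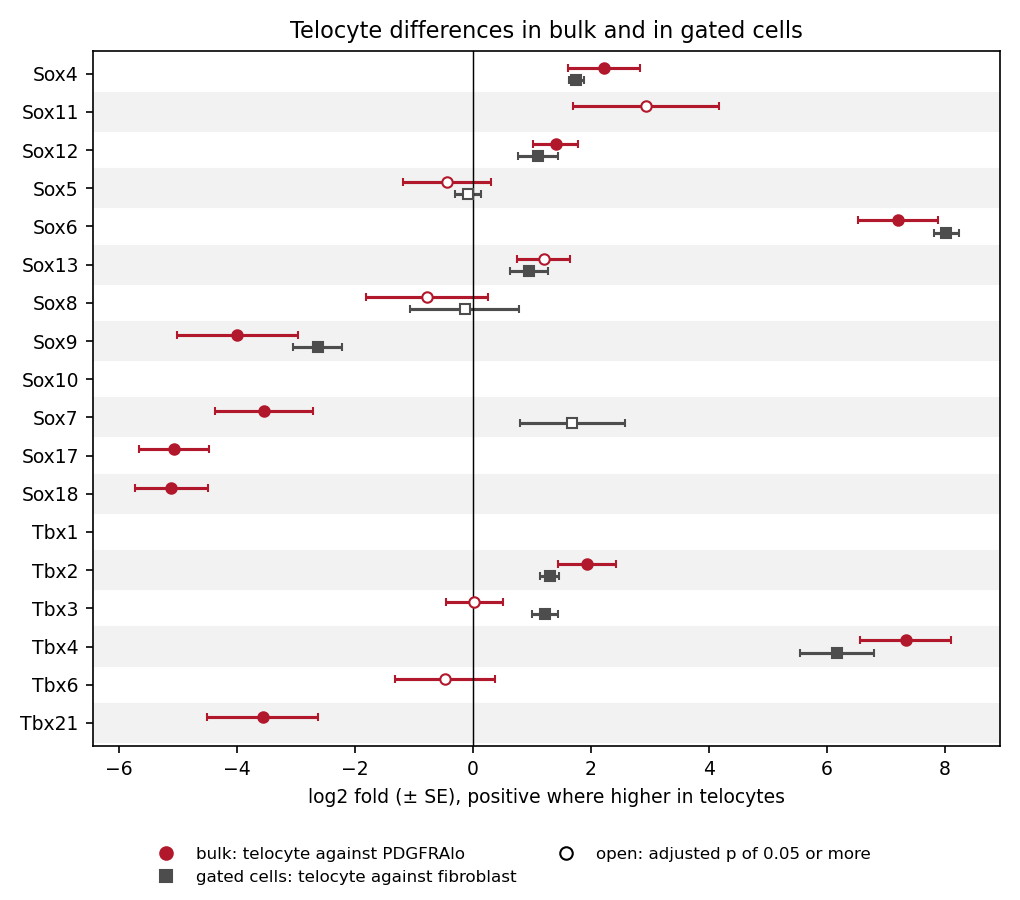
Log2 fold with its SE for members tested in bulk (circles, telocyte against PDGFRAlo) and in whole-mesenchyme cells (squares, gated telocyte against gated fibroblast), filled where the adjusted p was under 0.05; members with 3 or fewer counts in a group are not drawn. Sox6 and Tbx4 lie near 6 to 8 on both scales, whereas Tbx3 is called in cells at 1.22 and not in bulk at 0.02.

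Over gated cells, 8 of the 16 members tested were called between telocytes and fibroblasts, 7 higher and 1 lower, where 25.4% of 11039 genes were called (8.87% higher, 16.5% lower). The median log2 fold of the 16 was 1.07 as fitted and 1.16 with the member at 0 put at its bound, against -0.15 over all genes. Between gated blood and lymphatic endothelium 6 were called, 5 higher and Tbx1 lower, where 26.1% of all genes were called (15.0% higher, 11.2% lower). The members' median there was 1.47 as fitted and 0.39 with 7 members at their bounds, against 0.02 over all genes. DESeq2 called 5 and 2 members in these comparisons. In the sorted library, which has no replicate, telocytes and fibroblasts measured 219 and 1.90 CPM for Sox6, 672 and 86.0 for Sox4, 56.4 and 14.6 for Tbx2, 11.2 and 0.554 for Tbx4, 16.7 and 7.52 for Sox13 and 11.2 and 4.91 for Sox12, in the same direction as whole mesenchyme. Its Tbx3 levels were 13.3 and 12.4 CPM, with overlapping counting intervals. The 642 cells that met no gate there held 207 CPM of Sox6 and 605 of Sox4, close to gated telocytes.

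Tbx1 (chr16:18580979-18590671, minus strand), which in the embryo is needed for growth of lymphatic vessels in the gut, measured 80.7 and 186 CPM in lymphatic endothelium, 0.331 and 1.97 in blood endothelium, 2.97 and 1.71 in PDGFRAlo cells and 0.0713 and 0.121 in telocytes. The lymphatic libraries lay above all others, and Tbx1 was lower in blood than in lymphatic endothelium with a log2 fold of -6.92 (SE 0.85, adjusted p = 0.00175). This fold of Tbx1 ran from -8.61 without blood replicate 2 to -6.07 without blood replicate 1, was -6.16 without lymphatic replicate 2, and stayed called. In single cells 237 of its 242 gated whole-mesenchyme UMIs were in lymphatic endothelium (274 and 259 CPM) and none in blood endothelium, at least 112-fold lower (adjusted p = 2.29e-13, and 0.458 in DESeq2). A Tbx1 UMI was seen in 67.5% and 77.2% of lymphatic cells (43.0% and 34.2% after thinning) and in 0 of 118 and 0 of 121 blood endothelial cells, which as exact 95% limits allow cells with a UMI up to 3.08% and 3.0% at this depth and set no limit on cells expressing the gene. Of the gated lymphatic cells, 38.6% and 40.5% carried 3 or more blood endothelial markers. The PDGFRAlo excess over telocytes rested on 82 against 3 counts, a ratio of 22.6 (95% counting interval 7.45 to 112), and its call (adjusted p = 0.0229) was lost without telocyte replicate 1 (0.107) or 2 (0.109) or PDGFRAlo replicate 1 (0.0854). Lymphatic markers in PDGFRAlo cells were 6.38 and 1.78% of the lymphatic mean and Tbx1 was 2.23 and 1.28%; their part in this was not tested.

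Tbx21 (chr11:97098071-97115331, minus strand), the T-bet gene, measured 0.428 and 0.545 CPM in telocytes, 1.45 and 10.2 in PDGFRAlo cells, 1.16 and 1.09 in blood endothelium and 4.19 and 4.17 in lymphatic endothelium. PDGFRAlo replicate 2 was the highest library, and replicate 1 lay among the endothelial ones. The call of lower Tbx21 in telocytes (-3.57, SE 0.94, adjusted p = 0.0315) was lost at -1.56 (adjusted p = 0.403) without PDGFRAlo replicate 2, and the fold was -4.35 without PDGFRAlo replicate 1. The call of Tbx21 was also lost without telocyte replicate 1 (0.168) or 2 (0.157) or lymphatic replicate 1 (0.0609) or 2 (0.0619), and in the fit of the compared libraries alone (0.0835). Between PDGFRAlo replicates 1 and 2 lymphocyte markers differed in the same way. The NK or group 1 markers summed to 5.61 and 115 CPM and the 3 T cell markers listed in bulk to 6.01 and 76.9 CPM. In blood endothelium the NK or group 1 markers summed to 210 and 168 CPM, above both PDGFRAlo libraries, though Tbx21 was at 1.16 and 1.09 CPM. In lymphatic endothelium they summed to 317 and 53.4 CPM at near-equal Tbx21. The part of lymphocyte RNA in the bulk Tbx21 levels was not tested. Gated NK or group 1 innate lymphoid cells held 148 and 136 CPM of Tbx21 and T cells 39.6 and 38.1 CPM, against 0.84 and 0.917 CPM in fibroblasts. A Tbx21 UMI was seen in 42.9% and 39.0% of NK or group 1 cells. Droplets with under 50 UMIs held 20.1 and 20.4 CPM. Tbx6, the presomitic mesoderm factor, did not exceed 1.85 CPM in any bulk library and was called in no bulk comparison.

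The other 14 members (Sox1, Sox2, Sox3, Sox14, Sox15, Sox21, Sox30, Tbx5, Tbx10, Tbx15, Tbx18, Tbx19, Tbx20 and Tbx22) did not pass the bulk filter. Tbx5, Tbx20 and Tbx22 had no count in any bulk library, and the remaining 11 had at most 61 counts over all libraries, for Sox15, and at most a mean of 0.655 CPM in a population. Over the gated cells of all 3 single-cell libraries 25 of the 32 members had a UMI and 7 had none.

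Gated telocytes were then divided by 3 other transcripts, a division chosen after the values were seen and given without a test. Cells with a Slitrk6 UMI and no Wif1 or Chrd UMI numbered 22, 26 and 60 in whole-mesenchyme libraries 1 and 2 and the sorted library, and cells with a Wif1 or Chrd UMI and no Slitrk6 UMI numbered 39, 36 and 321. Tbx3 measured 118, 117 and 49.9 CPM in the Slitrk6 cells and 6.53, 28.8 and 8.39 CPM in the Wif1 or Chrd cells. It was higher in the Slitrk6 cells of all 3 libraries, with 95% Poisson intervals that did not overlap. Sox5 went the same way, at 58.8, 86.2 and 42.3 CPM against 19.6, 35.1 and 14.5 CPM, with intervals that overlapped in all 3. Sox6 went the other way, at 288, 243 and 173 CPM against 464, 566 and 221 CPM, with intervals that overlapped in the sorted library alone. Tbx4 measured 41.2, 5.07 and 0 CPM against 49.0, 41.5 and 10.6 CPM, on 8 UMIs in the Slitrk6 cells. Tbx2 and Sox4 had no common direction over the 3 libraries.

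**Figure D4:**
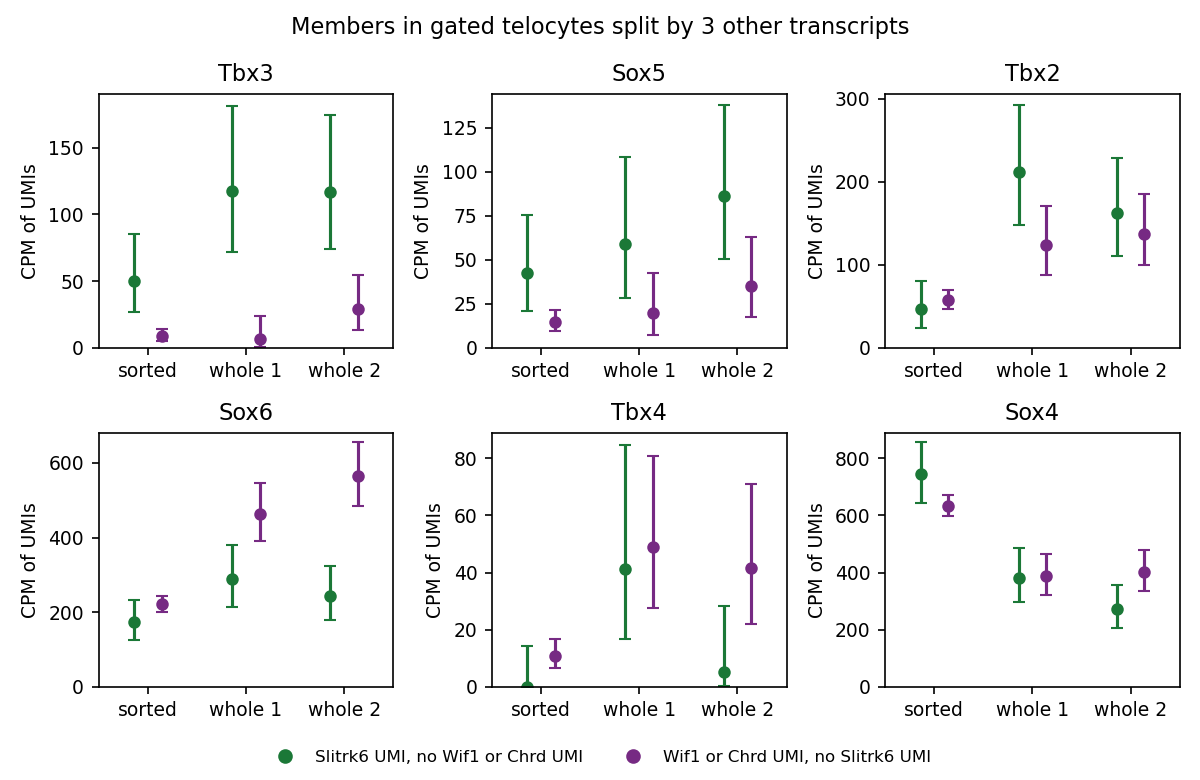
CPM of UMIs with exact 95% Poisson intervals, which cover counting error only, for 6 members in gated telocytes with a Slitrk6 UMI (green) and with a Wif1 or Chrd UMI (purple) in the sorted library and whole-mesenchyme libraries 1 and 2. Tbx3 is higher in the Slitrk6 cells and Sox6 in the Wif1 or Chrd cells of each library.

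Genes known to act below or beside the members were followed as lists. Of 13 vascular genes known to depend on SoxF factors, 11 were lower and 1 (Efnb2) higher in telocytes than in PDGFRAlo cells, where 12.1% of all genes were lower and 2.77% higher, with a median log2 fold of -4.69 against -0.03 over all genes. Many of these are endothelial genes, and all 6 blood endothelial markers and 4 of 5 tested lymphatic markers were lower in the same comparison; their part in the list's counts was not tested. Tek, an angiopoietin receptor, measured 1.07 and 2.00 CPM in telocytes and 137 and 81.4 in PDGFRAlo cells, and Robo4, an endothelial guidance receptor, 2.28 and 0.787 against 84.0 and 32.3. In blood against lymphatic endothelium 5 were higher, Tek, Cdh5 and Efnb2 among them, and 2 lower, where 14.7% and 8.32% of all genes were, with Prox1, the lymphatic master regulator, at 4.28 and 4.90 against 104 and 119 CPM. Flt4 and Prox1 are also lymphatic markers of the gates. Of 9 tested glial and neural crest genes linked to SoxE factors, 3 were lower and 1 higher in telocytes, where 12.1% and 2.77% of all genes were. Among the 3 were Mbp, a myelin protein gene, and Cdh19, a cadherin gene of Schwann cells. The higher one was the endothelin receptor Ednrb, which is also a telocyte marker. The median of the 9 was -3.02. Cdh19 is also a glia marker of the gates, and 3 of 6 glia markers were lower in telocytes, their part likewise not tested. None of the 9 was called between the endothelial populations, where 23.0% of all genes were.

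Of 14 tested genes known to act with or below Tbx2, Tbx3, Tbx4 and Tbx5, 3 were higher and 6 lower in telocytes, where 2.77% and 12.1% of all genes were, with a median of -2.91 against -0.03 over all genes. Of 10 fibroblast markers 9 were lower in the same comparison, and the part of cell type in the list's counts was not tested. Fgf10, the ligand that Tbx4 and Tbx5 drive in lung and limb, had no count in telocytes and measured 20.7 and 8.73 CPM in PDGFRAlo cells. The Wnt antagonist Frzb measured 0.356 and 0.0605 CPM against 91.4 and 50.6. Cdkn1a, a cell cycle inhibitor that Tbx2 and Tbx3 repress, was also lower in telocytes, 21.4 and 33.4 CPM against 339.8 and 96.0, while Bmp4 was higher. Of 5 tested cartilage matrix genes linked to Sox5, Sox6 and Sox9, none was called between telocytes and PDGFRAlo cells, where 14.9% of all genes were. Of the same 5, 1 was lower in blood than in lymphatic endothelium, where 8.32% of all genes were. In the PDGFRA populations 1 was higher than in endothelium, where 28.8% of all genes were. Col2a1 had no count in any library. Of 10 type 1 lymphocyte genes linked to Tbx21, 1 (Prf1) was called between telocytes and PDGFRAlo cells, where 14.9% of all genes were, a near share. Prf1 was lower in telocytes (0 and 0.121 CPM against 0.594 and 4.71), and the list's median was -3.11, against -0.03 over all genes. Of these 10 genes, 1 was higher and 1 lower in blood than in lymphatic endothelium, where 14.7% and 8.32% of all genes were. In the PDGFRA populations 5 were lower than in endothelium, where 31.7% of all genes were. None of 8 tested genes for unnumbered T-box and other HMG-box factors was called between the PDGFRA populations, where 14.9% of all genes were. Their median was -0.07.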

How the data were processed

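The authors deposited bulk data as 1 table of raw read counts for each symbol. STAR and the mm10 build are named in the submitters' processing notes. The sources used here give neither the counting program nor its annotation or strand setting. The authors deposited single-cell data as UMI counts in Cell Ranger output, made with version 2.1.1 (sorted) or 3.0.2 (whole mesenchyme) per the submitters' processing notes, which also name Seurat.

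A set of 26 names that a spreadsheet had turned into dates (0.131% to 0.523% of counts) was left out. After filterByExpr, 14893 genes of all 8 bulk libraries were fitted by quasi-likelihood in edgeR 4.0.16 under R 4.3.3, after TMM scaling, with 4 residual degrees of freedom and a common biological coefficient of variation of 0.381. P-values were adjusted by Benjamini-Hochberg over all genes and called under 0.05. DESeq2 1.42.0 was an alternative. A fit that left out 1 library took the lone library of its group to vary like the other groups.

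Single cells (scanpy 1.11.5, Python 3.11.15) needed at least 500 detected genes and less than 10% of UMIs from mitochondrial genes. Cells with a doublet score over 0.25 were removed (45 in the sorted library, 98 and 113 in whole mesenchyme). That limit was set after an automatic threshold marked 6 cells in whole-mesenchyme library 1. A cell was gated to the type with at least 3 detected markers and a lead of 2 markers over any other. The T cell markers Trac, Trbc1 and Trbc2 were not listed in the sorted matrix. UMI counts were summed per class and library for classes with 20 or more cells in both whole-mesenchyme libraries, and 11039 genes were fitted in edgeR with the library as a block and 13 residual degrees of freedom. The sorted library was not tested. Its intervals, and those of shares, are exact 95% Poisson or binomial intervals for counting error only. CPM of UMIs are per 1e6 UMIs of the class.

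Members and lists were chosen with earlier results of these data known. Members with a mean of 1 CPM in a bulk population, a call, or 20 CPM and 10 UMIs in a gated class were to be given with values, others by counts, and at most 4 genes of a list were to be named, those with the smallest p. Col2a1, Cdkn1a, Bmp4 and, in telocytes, Efnb2 were named outside that limit after their values were seen. Promoter windows are from RefSeq on GRCm38.p6, gene positions from GENCODE M21 on GRCm38, all 1-based. Some sequences and a gene of the lists are not reported here. Both tests were tested on simulated counts.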

Additional observations from a re-analysis of the deposited data

How the results depend on the processing

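Bulk alternatives were DESeq2, no filter on low counts, a fit of the compared libraries alone, a replicate block, a test against a fold of 2 and leaving out each library. Over 54 bulk results, 619 alternative values kept direction and call, 55 lost a call, 13 gained one and 11 turned. The number of members called between telocytes and PDGFRAlo cells was 11. It was 12 in DESeq2, 8 in the fit of the compared libraries alone, 7 against a fold of 2 and 4 to 11 with a library left out. Between blood and lymphatic endothelium 5 to 9 members were called with a library left out, against 7. Members specific to 1 population numbered 8. They numbered 9 in DESeq2, which added Sox13, and 4 to 8 with a library left out. The cause of these changes was not tested.

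Same-numbered libraries do not share a stated animal or day, and their deviations correlated at -0.0915 to 0.311, so the numbers were not taken to pair them. With the replicate block 9 members were called between telocytes and PDGFRAlo cells, without Sox4 (adjusted p = 0.0609) and Sox12 (0.0507), 7 between blood and lymphatic endothelium, 13 between the PDGFRA populations and endothelium and 6 as specific to 1 population. In single cells the fit with no replicate block called 51 pairs, 8 and 6 members, as with it.

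Directions that turned were all of differences that were not called, and the cause was not tested. Between telocytes and PDGFRAlo cells Tbx3 (0.02) was -0.0033 in the fit of the compared libraries alone and ran from -0.42 to 0.69 with a library left out, Sox5 from -0.81 to 0.072, Sox8 from -1.84 to 0.15 and Tbx6 from -0.86 to 0.079. Between blood and lymphatic endothelium Sox5 ran from -1.10 to 1.82, Sox8 from -2.69 to 1.88, Sox9 from -0.28 to 1.02 and Tbx4, on 4 counts, from -4.48 to 1.86. Between the PDGFRA populations and endothelium Tbx21 ran from -1.35 to 0.12. With predicted doublets kept, Sox17 was -0.0066 between gated telocytes and fibroblasts and Tbx21 -0.24 between gated endothelial classes, and Sox6 in sorted fibroblasts was 3.40 CPM in place of 1.90.

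In single cells DESeq2 called 42 pairs in place of 51, 5 in place of 8 members between telocytes and fibroblasts and 2 in place of 6 between endothelial classes. A stricter gate called 48 pairs, 8 and 6 members. Leaving out a whole-mesenchyme library was not run, since 1 library per class leaves no residual degrees of freedom. Depth limits members under about 1 CPM in bulk and classes of few cells, such as glia (32 and 23 cells).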

Other observations

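Gated fibroblasts were also divided by other transcripts, a division chosen after the values were seen and given without a test. Tbx2 measured 81.7, 73.4 and 25.1 CPM in fibroblasts without a Grem1 or Pi16 UMI (whole-mesenchyme libraries 1 and 2 and the sorted library), 30.2, 28.3 and 6.84 CPM in those with a Grem1 UMI and 5.55, 18.7 and 3.17 CPM in those with a Pi16 UMI. Grem1 encodes a BMP antagonist and Pi16 marks adventitial fibroblasts. Tbx2 was highest in the cells with neither in every library, and their 95% Poisson intervals lay above those of the Grem1 cells. Droplets with under 50 UMIs held 28.8, 30.8 and 27.6 CPM of Tbx2 in the same libraries. That is near the Grem1 cells of whole mesenchyme and above every fibroblast group of the sorted library. Tbx3 followed Tbx2, at 28.5, 28.2 and 19.6 CPM without either UMI against 15.3, 15.4 and 7.01 CPM with a Grem1 UMI. Sox9 measured 35.5, 35.9 and 49.3 CPM against 30.2, 32 and 29.4 CPM, with intervals that overlapped in both whole-mesenchyme libraries.

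Gated enteric glia held UMIs of 2 SoxB1 genes, the neural progenitor factors Sox1 and Sox2, which were at most 0.0991 CPM as a mean in any bulk population. Sox1 had 6 and 3 UMIs there (37.5 and 28.6 CPM) of its 10 in gated whole-mesenchyme cells, and all 9 Sox2 UMIs of gated cells were in glia (18.7 and 57.2 CPM). These genes were named after their values were seen.

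Sox8 differed between single-cell libraries. Gated fibroblasts held 45.4 CPM of Sox8, from 574 UMIs, in the sorted library and 3.36 and 1.83 CPM in whole mesenchyme, while Sox9 measured 37.3 CPM against 32.4 and 33.7 CPM. Those 574 were part of 604 Sox8 UMIs over gated telocytes and fibroblasts of the sorted library. The 2 classes held 2941393 and 12631184 UMIs of all genes. The sorted library was made with another Cell Ranger version, and Sox8 shares 10.6% of its exon bases with an opposite-strand gene. The libraries have no common replicate, and the part of either in the difference was not tested.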
